A study of Mus musculus with 6 samples.

Results

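Chromosomes 6, 8 and 11 of mouse embryonic stem cells gave more bisulfite reads per CpG site than the other 16 autosomes, and their coverage and methylation are described here along each of them. They were chosen by coverage: each had a mean coverage over 1.2 times that of the median autosome in both the DNMT3B1 and the DNMT3A2 line. All their CpG sites in the deposited series table were members, 3360739 of 20782144 sites in all (16.2%). Chromosome 6 held 1135499 of these, chromosome 8 held 1083983 and chromosome 11 held 1141257, against 16446942 on the other 16 autosomes. Positions are those of the mouse genome build mm9.

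The study measured CpG methylation by whole-genome bisulfite sequencing, in which unmethylated cytosines are converted and methylated ones are still read as C. Its 3 lines came from embryonic stem cells null for Dnmt1, Dnmt3a and Dnmt3b, so every line lacked its own DNA methyltransferases and carried only an introduced one. In the first line DNMT3B1 was expressed and Setd2 was knocked out as well, the second line expressed DNMT3B1 and the third DNMT3A2. The labels listed 2 sequencing runs for each line, 6 samples in all, and no separate cultures. For DNMT3A2 and DNMT3B1 they named a HiSeq and a MiSeq run, and for the knockout a single and a paired-end run. Kind of run therefore cannot be told apart from the knockout. The deposited values gave each line once, so every line was treated as 1 library and no p-value between lines was computed. Whether both runs of a line entered its values is not stated. Whether a line was 1 clone, and how its enzyme was driven, are not stated in the labels. Cells were grown on feeders or on gelatine, per the labels. The table held 200947834 reads for the knockout, 188661576 for DNMT3B1 and 200364080 for DNMT3A2, counted over CpG sites. The knockout listed only sites with at least 10 reads, 44.7% of all, so its coverage is given as the 75th percentile over all sites of the table.

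Read depth follows the number of copies of a chromosome in the cells sequenced. Cultured mouse embryonic stem cells are known to gain chromosomes, and chromosomes 8 and 11 are among those most often gained. In a genome with 2 copies of most autosomes, 3 copies give a relative depth of 1.5. DNMT3A and DNMT3B place methyl groups on unmethylated CpGs, DNMT1 copies them onto the new strand after replication, and SETD2 places the trimethyl mark of histone H3 lysine 36 on transcribed genes, a mark that binds DNMT3B. A methylation level is a share of reads and is not changed by copy number as such.

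In RefSeq (assembly GRCm38.p6, used here for gene names and chromosomes only), the 3 chromosomes carried 3777 of 20661 autosomal protein-coding genes (18.3%), beside 16.97% of autosomal CpG sites. Chromosome 11 carried 1609 of these genes, chromosome 6 carried 1126 and chromosome 8 carried 1042. Of 16 listed genes of the methylation machinery, 2 lay on them. These were Tet3 on chromosome 6, which oxidises 5-methylcytosine, and Nsd3 on chromosome 8, which methylates lysine 36 of histone H3. The genes deleted in these cells lay elsewhere, Dnmt1 and Setd2 on chromosome 9, Dnmt3a on chromosome 12 and Dnmt3b on chromosome 2.

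Chromosome 11 had the highest coverage of the 3 chromosomes in every line. Its mean coverage was 13.1 reads per site in the DNMT3B1 line and 13.7 in the DNMT3A2 line, 1.69 times the median autosome in each. On chromosome 6 the mean was 10.7 reads in the DNMT3B1 line and 11.3 in the DNMT3A2 line, 1.38 and 1.40 times the median autosome. On chromosome 8 it was 10.0 reads in the DNMT3B1 line and 10.6 in the DNMT3A2 line, 1.30 times in each. The other 16 autosomes lay between 0.860 and 1.08 in the DNMT3B1 line and between 0.866 and 1.08 in the DNMT3A2 line. Just inside the threshold of 1.2 was thus chromosome 8, and just outside it chromosome 19, with 1.08 in each of these lines. These values chose the members and are a description. They leave out sites above 5 times the median coverage. Without that maximum, chromosome 2 had 2.72 times the median autosome in the DNMT3B1 line and 2.85 in the DNMT3A2 line. Chromosome 9 then had 1.42 and 1.45.

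The rule did not use the coverage of the knockout. Its cells share the triple-null origin of the other lines, so its coverage is not an independent check on theirs. In the knockout the 75th percentile of coverage was 24.7 reads on chromosome 11, 20.2 on chromosome 6 and 19.3 on chromosome 8. These were 1.64, 1.34 and 1.28 times the median autosome, while the other 16 ranged from 0.851 (chromosome 3) to 1.06 (chromosome 19). The share of sites with at least 10 reads was 70.2% on chromosome 11, 58.0% on chromosome 6 and 56.1% on chromosome 8, against 37.3% to 49.8% on the other 16. In the knockout the 3 chromosomes and the other 16 did not overlap by either of these 2 measures of the same coverage.

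**Figure D1:**
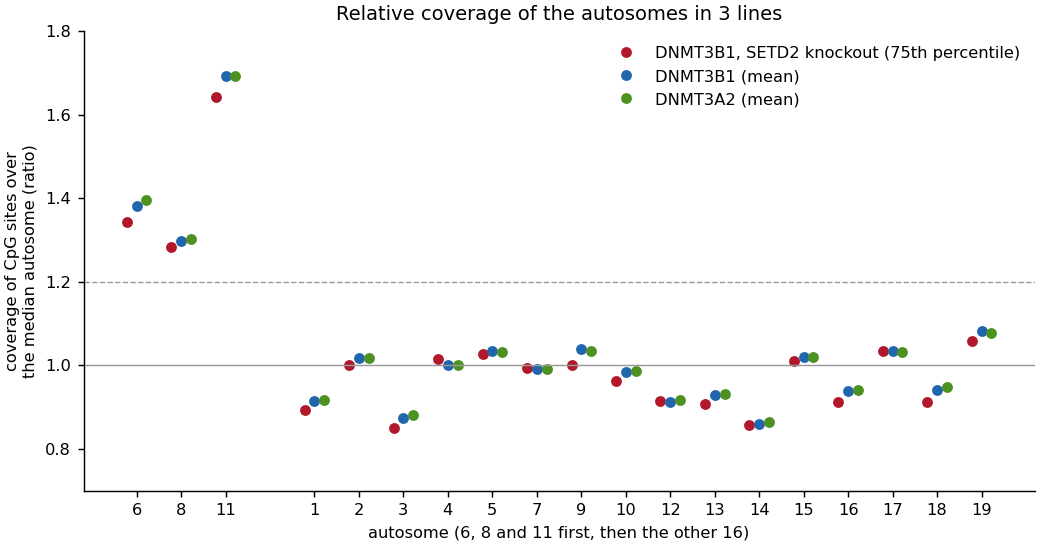
Coverage of CpG sites of each autosome over that of the median autosome, as the mean for DNMT3B1 and DNMT3A2 and as the 75th percentile for the SETD2 knockout; each point is 1 library. The dashed line is the rule's threshold of 1.2. Means leave out sites above 5 times the median coverage. On these measures chromosomes 6, 8 and 11 lie between 1.28 and 1.69 in every line, and no other autosome is above 1.08.

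Chromosome 11 is also rich in CpGs. Its sites had a mean of 19.1 CpGs per kb, against 14.9 to 18.4 on the other 16, with 17.7 on chromosome 8 and 15.4 on chromosome 6. At sites of matched density, 10 to 19 CpGs within 500 bp on each side, the relative means were 1.61 in the DNMT3B1 line and 1.62 in the DNMT3A2 line on chromosome 11. They were 1.42 and 1.43 on chromosome 6 and 1.27 and 1.28 on chromosome 8 for the same lines. The knockout gave 1.60, 1.40 and 1.27 for chromosomes 11, 6 and 8 at this density. Of all autosomal reads at sites under the coverage maximum, the 3 chromosomes together held 23.4% in the DNMT3B1 line and 23.5% in the DNMT3A2 line.

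To see whether whole chromosomes or parts of them were raised, coverage was taken in 1 Mb tiles with at least 500 sites. Of the tiles of the 3 chromosomes, 60.2% in the knockout, 63.4% in the DNMT3B1 line and 64.1% in the DNMT3A2 line were past 1.2 times the median autosomal tile. Over all autosomes the shares were 24.2%, 27.7% and 27.4%. Since the rule used coverage, nothing is read from that excess. Raw tile coverage followed CpG content: the correlation with the log2 number of CpG sites over tiles was 0.894 on chromosome 6 (147 tiles), 0.696 on chromosome 8 (127 tiles) and 0.949 on chromosome 11 (119 tiles) in the DNMT3A2 line, and 0.852 over the 2022 tiles of the other 16. These tiles share a library and their depth, so the correlations are descriptions. The tile with the highest raw coverage on chromosome 11, from 119000001 to 120000000, held 14630 CpG sites and was at 2.34 times the median tile in the DNMT3B1 line and 2.33 in the DNMT3A2 line. The lowest, from 27000001 to 28000000, held 4842 sites and was at 0.703 and 0.719. Chromosome 6 ran from 2.16 and 2.15 in the tile from 91000001 to 92000000 down to 0.450 and 0.459 from 130000001 to 131000000. Chromosome 8 ran from 2.20 and 2.17 in the tile from 73000001 to 74000000 down to 0.289 and 0.294 from 22000001 to 23000000.

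Each tile was therefore also divided by the median of the 101 tiles with the nearest number of CpG sites on the other 16 autosomes, a scale chosen after seeing the data. On this scale chromosome 11 was raised along its length. Its 119 tiles had a median of 1.52 in the knockout and 1.55 in each of the other lines. Chromosome 6 was also raised along its length, with medians of 1.42 in the knockout and 1.48 in each of the other lines over 147 tiles. In the DNMT3A2 line 144 of these 147 tiles were past 1.2 (98.0%), and 142 in the DNMT3B1 line (96.6%). In the knockout 129 were (87.8%), and the lowest tile was at 0.968. Over all autosomes 19.1% of tiles in the knockout, 17.0% in the DNMT3B1 line and 16.9% in the DNMT3A2 line were past 1.2, and on the other 16 alone 4.39%, 3.12% and 2.82%. Tiles of the other 16 had a median of 1.00 in every line, with an SD of 0.111 in the knockout, 0.123 in the DNMT3B1 line and 0.117 in the DNMT3A2 line. The 4 raw extremes named above for chromosomes 6 and 11 came closer together, at 1.776 and 1.251 on chromosome 6 and at 1.63 and 1.47 on chromosome 11 in the DNMT3B1 line.

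Chromosome 8 was raised in its middle only. A least-squares fit of 3 segments put the middle from 11000001 to 96000000 in the knockout and in the DNMT3A2 line, and from 12000001 to 96000000 in the DNMT3B1 line. The 83 tiles of that middle had a median of 1.43 in the knockout, 1.48 in the DNMT3B1 line and 1.49 in the DNMT3A2 line. All 83 were past 1.2 in the DNMT3B1 and DNMT3A2 lines, and 76 of them in the knockout. Their borders were fitted to tile coverage in the DNMT3A2 line, so medians and counts inside and outside them are descriptions. The 8 tiles of the centromeric end (5 with a value in the knockout) had medians of 0.921, 0.975 and 0.967 in the knockout, the DNMT3B1 line and the DNMT3A2 line, and none was past 1.2. The 36 tiles of the telomeric end (30 in the knockout) had medians of 1.02, 1.01 and 1.01 in the same lines, with 4 tiles past 1.2 in the DNMT3B1 line and 4 in the DNMT3A2 line. Values of the ends thus stood at the level of the other 16 autosomes, in the knockout as in the lines that the rule used. The relative coverage of 1.30 for all of chromosome 8 averaged a raised middle and unraised ends. Without the ends its mean was 1.42 times the median autosome in the DNMT3B1 line and 1.43 in the DNMT3A2 line, and the 75th percentile in the knockout 1.42 times.

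The borders were sharp at this resolution. At the first border, the tiles from 10000001 to 11000000, from 11000001 to 12000000 and from 12000001 to 13000000 had 0.970, 1.21 and 1.47 times the coverage of tiles of like CpG count in the DNMT3B1 line. The DNMT3A2 line had 0.972, 1.23 and 1.48 in these tiles, and the knockout 0.874, 1.26 and 1.44. At the second border, the tiles from 95000001 to 96000000, from 96000001 to 97000000 and from 97000001 to 98000000 had 1.59, 1.21 and 1.07 in the DNMT3B1 line. The DNMT3A2 line had 1.51, 1.21 and 1.05 there, and the knockout 1.53, 1.19 and 1.03. The tile that held each border had an intermediate value in every line. In tiles of 200 kb the middle ran from 11400001 to 96600000 in the knockout and in the DNMT3A2 line, and from 11600001 to 96400000 in the DNMT3B1 line. The 3 segments accounted for 59.97% of the variance of log2 tile coverage on chromosome 8 in the knockout, 76.1% in the DNMT3B1 line and 77.6% in the DNMT3A2 line. The same fit accounted for 14.9%, 20.97% and 24.4% on chromosome 6, and for 18.4%, 28.2% and 28.2% on chromosome 11. On single other autosomes it reached 46.6% in the knockout (chromosome 16), 62.8% in the DNMT3B1 line and 63.8% in the DNMT3A2 line (chromosome 12), so that a high share does not by itself mark a gain.

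**Figure D2:**
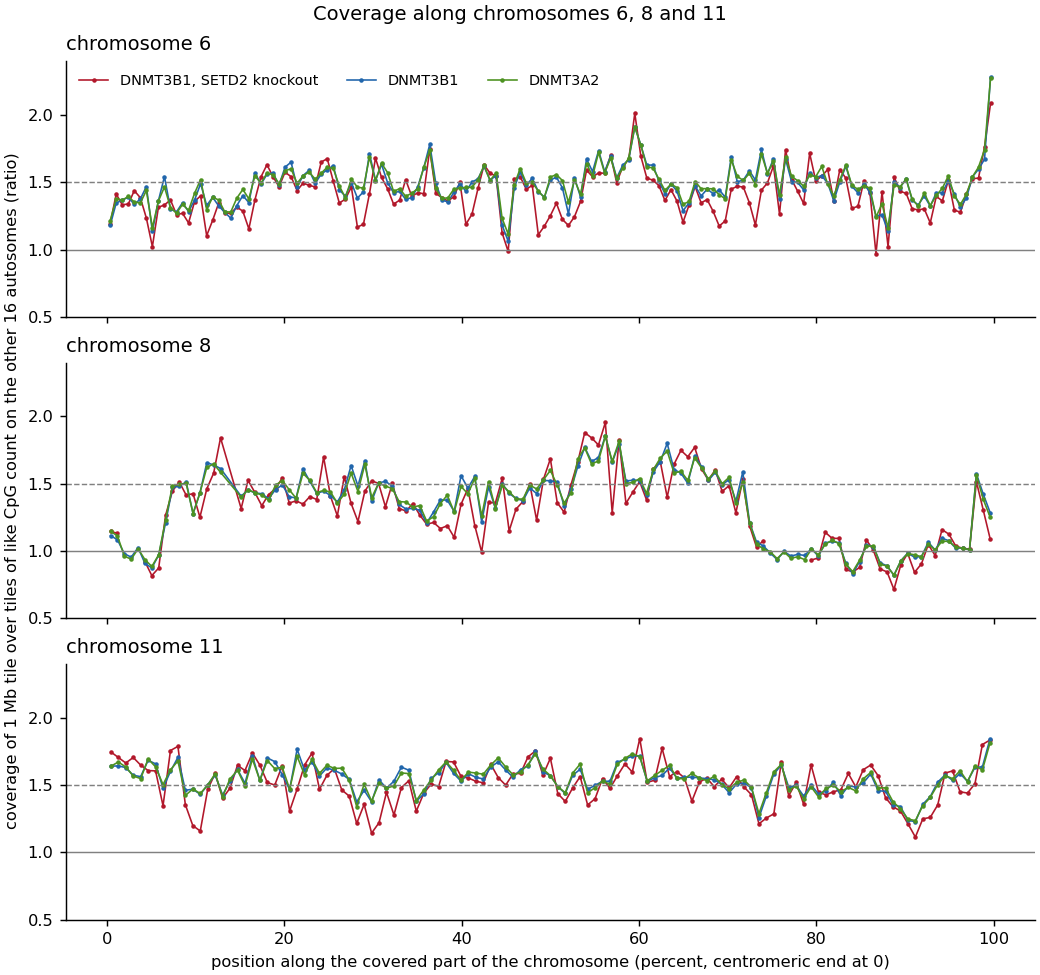
Coverage of 1 Mb tiles over tiles of like CpG count on the other 16 autosomes, along the covered part of chromosomes 6, 8 and 11; each line joins the tiles of 1 library. The solid rule is at 1 and the dashed rule at 1.5. Chromosomes 6 and 11 stay above 1 almost throughout, while chromosome 8 is near 1 in most of its first 8 and last 36 tiles and between 0.991 and 1.95 in the 83 tiles of its middle.

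Within the raised stretches coverage was not level. Over tiles of like CpG count, runs of 5 or more tiles whose 5-tile running median departed by over 15% from that of the chromosome were found on chromosome 8 only, in both lines tested, DNMT3B1 and DNMT3A2. There were 2 lower runs, from 3000001 to 11000000 and from 97000001 to 129000000, which are its ends. The higher run, from 71000001 to 78000000, stood at 1.69 in the DNMT3B1 line and 1.68 in the DNMT3A2 line. On chromosome 6, the first 24 tiles had a median of 1.30 in the knockout, 1.35 in the DNMT3B1 line and 1.36 in the DNMT3A2 line, and the next 118 tiles had 1.44, 1.495 and 1.497. On chromosome 11, a stretch from 108000001 to 114000000 or 115000000 had a median of 1.34 over 6 tiles in the DNMT3A2 line and 1.26 over 7 tiles in the knockout, beside 1.55 and 1.53 over the 105 tiles before it. For DNMT3B1 the fit placed its middle segment from 85000001 to 115000000, with a median of 1.47 over 30 tiles, beside 1.57 over the 82 tiles before it. Tile values of the DNMT3B1 and DNMT3A2 lines were nearly the same, with a median absolute difference of 0.021 on chromosome 6, 0.014 on chromosome 8 and 0.018 on chromosome 11. Differences between the knockout and the DNMT3A2 line were larger, with medians of 0.073, 0.061 and 0.068. How many copies the cells carried, and in what share of cells, cannot be told apart from coverage alone.

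Methylation was compared at sites with at least 5 reads in all 3 lines, at most 5 times the median coverage and 10 to 19 CpGs within 500 bp on each side. In the knockout the minimum was in effect 10 reads, since no site with fewer was listed. The 3 chromosomes gave 802771 such sites and the other 16 autosomes gave 2330670. More of the density-matched sites could be compared on the 3 chromosomes (61.1%) than on the other 16 (37.5%), since a raised depth carries more sites past the minimum. Mean coverage at the sites compared was 22.1 reads in the knockout, 15.4 in the DNMT3B1 line and 16.1 in the DNMT3A2 line on the 3 chromosomes, and 18.0, 11.9 and 12.2 on the other 16.

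The level of the 3 chromosomes together was close to that of the other 16 autosomes. In the knockout 6.94% of reads were methylated on the 3 chromosomes (95% interval 6.92% to 6.95%) and 6.93% on the other 16 (6.92% to 6.94%). In the DNMT3B1 line the levels were 3.29% (3.28% to 3.30%) and 3.32% (3.31% to 3.32%). In the DNMT3A2 line they were 9.14% (9.13% to 9.16%) and 9.18% (9.17% to 9.19%). The ratios were 1.001 (0.999 to 1.003) in the knockout, 0.993 (0.990 to 0.997) in the DNMT3B1 line and 0.996 (0.994 to 0.998) in the DNMT3A2 line. Intervals are exact binomial ones for levels and cover counting error only, because neighbouring CpGs share reads and there was 1 library per line. The SD over the single other autosomes was 0.142 percentage points in the knockout, 0.0763 in the DNMT3B1 line and 0.212 in the DNMT3A2 line, larger than each of these 3 differences.

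The near equality hid chromosomes that went different ways. Chromosome 6 had 7.07% in the knockout, 3.33% in the DNMT3B1 line and 9.33% in the DNMT3A2 line, or 1.020, 1.004 and 1.016 times the other 16. Chromosome 8 had 7.09%, 3.44% and 9.37%, or 1.023, 1.037 and 1.021 times. Chromosome 11 had 6.75%, 3.18% and 8.87%, or 0.974, 0.960 and 0.966 times. Among the 19 autosomes chromosome 11 was the lowest in the knockout and in the DNMT3B1 line and ranked second from the lowest in the DNMT3A2 line, after chromosome 7. The single other autosomes ranged from 6.77% to 7.23% in the knockout, from 3.21% to 3.49% in the DNMT3B1 line and from 8.71% to 9.58% in the DNMT3A2 line. Chromosomes 6 and 8 lay inside these ranges in every line. Chromosome 11 lay below them by 0.021 percentage points in the knockout and by the same in the DNMT3B1 line, and inside them in the DNMT3A2 line.

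**Figure D3:**
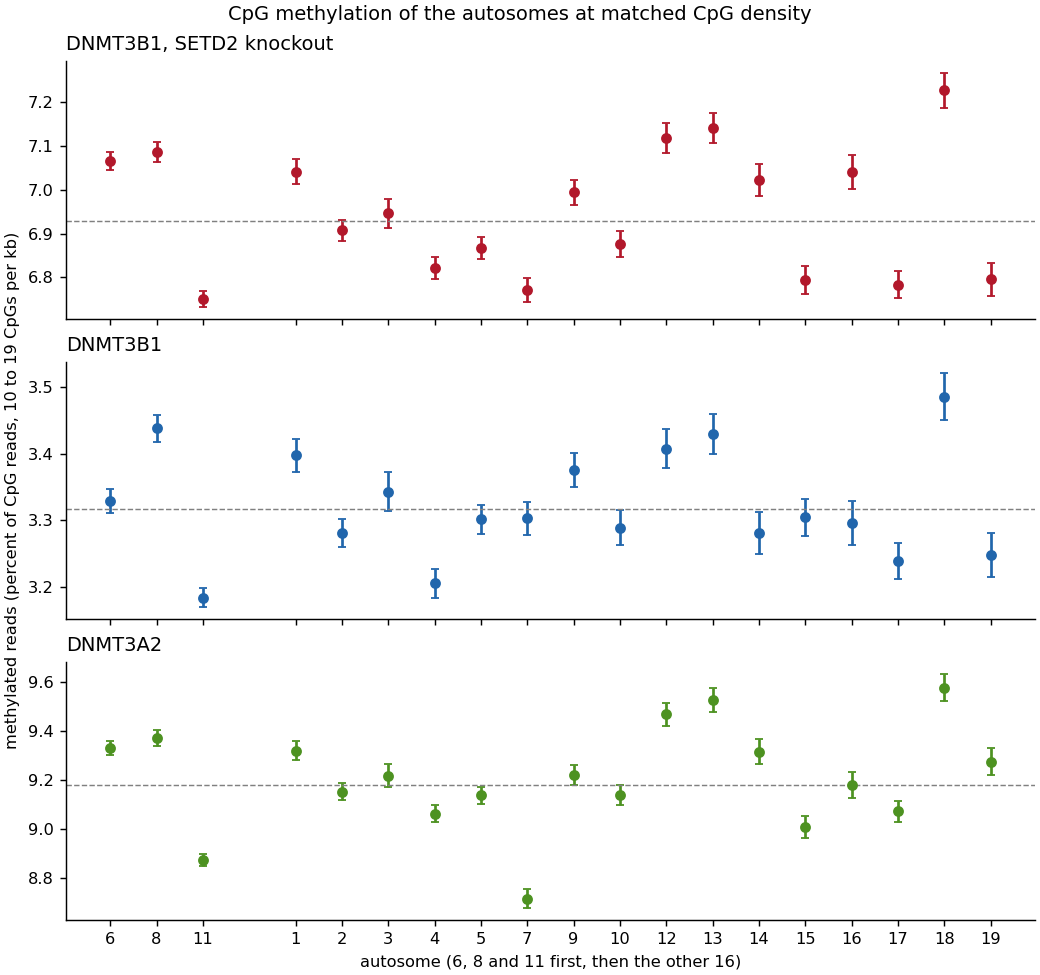
Methylated reads as a percentage of CpG reads on each autosome, at sites with 10 to 19 CpGs per kb compared in all 3 lines; bars are exact 95% binomial intervals, the dashed line is the pooled level of the other 16, and the axes do not start at 0. Chromosome 11 has 6.75% in the SETD2 knockout, 3.18% in the DNMT3B1 line and 8.87% in the DNMT3A2 line, and chromosomes 6 and 8 lie above the dashed line in all 3.

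The partial raise of chromosome 8 allowed a comparison within 1 chromosome. Its middle had 7.04% in the knockout (7.01% to 7.07%), against 7.18% at its ends (7.14% to 7.22%), a ratio of 0.980 (0.974 to 0.987). In the DNMT3B1 line the middle had 3.39% (3.36% to 3.41%), against 3.55% at the ends (3.52% to 3.59%), a ratio of 0.953 (0.941 to 0.965). In the DNMT3A2 line the middle had 9.38% (9.34% to 9.42%), against 9.36% at the ends (9.30% to 9.41%), a ratio of 1.002 (0.995 to 1.010). Counted over pooled reads, the middle was lower in the knockout and in the DNMT3B1 line. Over 1 Mb tiles the median of the middle was 6.92% in the knockout, 3.375% in DNMT3B1 and 8.67% in DNMT3A2, lower in each than the 7.26%, 3.51% and 9.12% of the ends. Set against the other 16 autosomes, the middle stood at 1.016 times their level in the knockout, 1.021 in the DNMT3B1 line and 1.022 in the DNMT3A2 line. The ends, without raised coverage, stood at 1.036, 1.071 and 1.019 times in the same lines. The middle and the ends also differed in CpG content, with medians of 7313 and 10092.5 CpG sites per tile, and levels over tiles of like CpG count are given further on. Of the density-matched sites, 60.5% could be compared in the middle and 43.7% at the ends. Mean coverage at the sites compared was 22.2, 15.4 and 16.1 reads in the middle and 18.6, 12.3 and 12.7 at the ends, in the same order of lines. The middle and the ends also differ in place along the chromosome, which cannot be told apart from raised coverage here. What these differences did to the levels was not tested, and no such split of methylation was made on the other autosomes.

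Ratios between lines differed little on the 3 chromosomes. The log2 ratio of DNMT3B1 over DNMT3A2 was -1.47 on the 3 chromosomes and on the other 16, and that of the knockout over DNMT3B1 was 1.07 and 1.06. Relative to all autosomes, the log2 ratio of DNMT3B1 over DNMT3A2 was -0.016 on chromosome 6, 0.024 on chromosome 8 and -0.0087 on chromosome 11, with a range of -0.044 to 0.070 over the other 16. The log2 ratio of the knockout over DNMT3B1 was 0.019, -0.023 and 0.018 on chromosomes 6, 8 and 11, with a range of -0.031 to 0.032 over the other 16. All 3 chromosomes were inside the range of the other 16 in both ratios. The ends of chromosome 8 had the largest departures among the stretches described, 0.072 for DNMT3B1 over DNMT3A2 and -0.047 for the knockout over DNMT3B1, set against the other 16. Its middle had -0.0013 and -0.0064.

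On the 3 chromosomes pooled, as on the other 16, methylation was highest at 5 to 9 CpGs per kb in the knockout and at 10 to 19 in the other lines, and lowest at 60 or more. Chromosome 8 alone had 7.05% at 5 to 9 and 7.09% at 10 to 19 in the knockout. At 1 to 4 CpGs per kb chromosome 8 had 6.34% in the knockout, 2.69% in the DNMT3B1 line and 5.30% in the DNMT3A2 line, 0.966, 0.934 and 0.936 times the other 16. Its ratio was 1.09, 1.14 and 1.23 at 40 to 59 CpGs per kb and 0.943, 1.02 and 1.01 at 60 or more. At 40 to 59 CpGs per kb chromosome 6 had 1.04% in the knockout, 0.310% in the DNMT3B1 line and 0.675% in the DNMT3A2 line. These were 0.881, 0.661 and 0.704 times the other 16. Chromosome 11 had 1.09%, 0.333% and 0.7997% there, or 0.923, 0.712 and 0.835 times. Single other autosomes ranged from 0.806 to 1.32 in the knockout, from 0.588 to 1.48 in the DNMT3B1 line and from 0.663 to 1.62 in the DNMT3A2 line in this class, so all 3 chromosomes were inside. At 60 or more CpGs per kb, the class of CpG islands, chromosome 11 had 0.448% in the knockout, 0.140% in the DNMT3B1 line and 0.169% in the DNMT3A2 line. Its ratio in the DNMT3A2 line, 0.765, was the lowest of the 19 autosomes, beside 0.769 on chromosome 9. In the class of 1 to 4 CpGs per kb, chromosome 8 in the DNMT3B1 line was also the lowest, at 0.934 beside 0.941 on chromosome 10. Chromosome 11 had 1.007, 0.976 and 1.063 times the other 16 in that class, in the knockout, DNMT3B1 and DNMT3A2 lines. At 5 to 9 CpGs per kb it had 0.988, 0.973 and 1.004 times, so chromosome 11 was not low in every class and line.

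**Figure D4:**
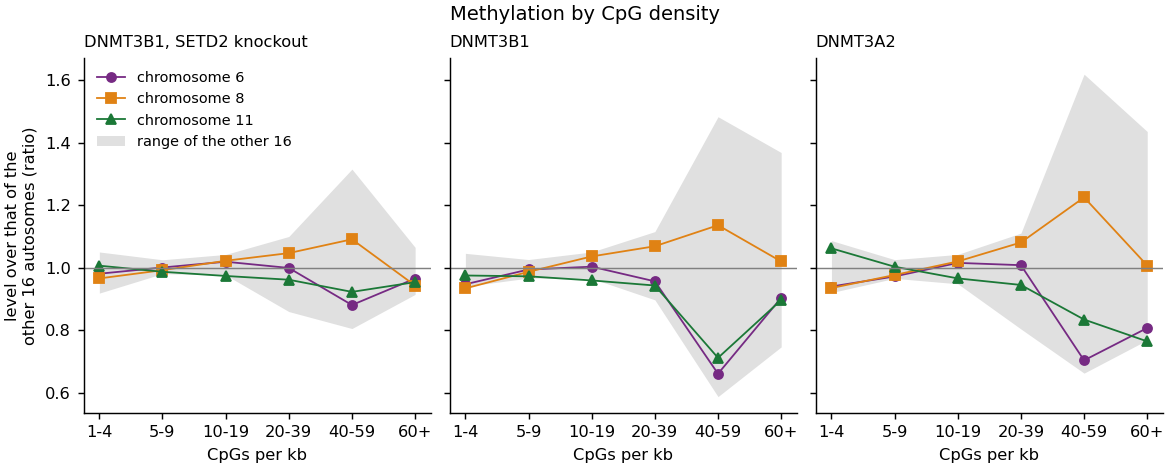
Methylation level of chromosomes 6, 8 and 11 over that of the other 16 autosomes pooled, in 6 classes of CpG density; the grey band spans the lowest and the highest single autosome of the other 16. Ratios at 40 to 59 CpGs per kb run from 0.661 on chromosome 6 in the DNMT3B1 line to 1.23 on chromosome 8 in the DNMT3A2 line, inside a band that is also widest there.

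In 1 Mb tiles with at least 200 compared sites, 328 of the 393 tiles of the 3 chromosomes had a value. The median tile of chromosome 11 had 6.74% in the knockout, 3.13% in the DNMT3B1 line and 8.75% in the DNMT3A2 line. That of chromosome 6 had 6.84%, 3.19% and 8.72%, and that of chromosome 8 had 7.04%, 3.42% and 8.89%. The median tile of the other 16 had 6.98%, 3.30% and 9.08%. Tiles over 25% above the median autosomal tile numbered 2 of 328 on the 3 chromosomes in the knockout (0.610%), 8 in the DNMT3B1 line (2.44%) and 8 in the DNMT3A2 line (2.44%). The shares over all autosomes were 0.956%, 4.10% and 3.65%. Tiles over 20% below it numbered 14 in the knockout (4.27%), 28 in the DNMT3B1 line (8.54%) and 51 in the DNMT3A2 line (15.5%). The shares over all autosomes were 3.88%, 7.31% and 9.84%. The share of low tiles in the DNMT3A2 line was highest on chromosome 6 (24 of 119, 20.2%), then on chromosome 8 (16 of 100), and 10.1% on chromosome 11 (11 of 109). The minimum of 200 sites kept a smaller part of the tiles of the other 16 (1451 of 2022), and what this did to the shares was not tested.

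Set against tiles of like CpG count, the median methylation ratio of chromosome 11 was 0.956 in the knockout, 0.940 in the DNMT3B1 line and 0.938 in the DNMT3A2 line. Each was below the lowest of the other 16 autosomes, which was 0.967 (chromosome 19) in the knockout, 0.961 (chromosome 19) in the DNMT3B1 line and 0.957 (chromosome 7) in the DNMT3A2 line. Chromosome 6 had 0.982, 0.988 and 0.986, and chromosome 8 had 1.015, 1.030 and 0.971, all inside the range of the other 16. The middle of chromosome 8 had 0.993, 1.015 and 0.971, and its ends 1.049, 1.059 and 0.981.

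**Figure D5:**
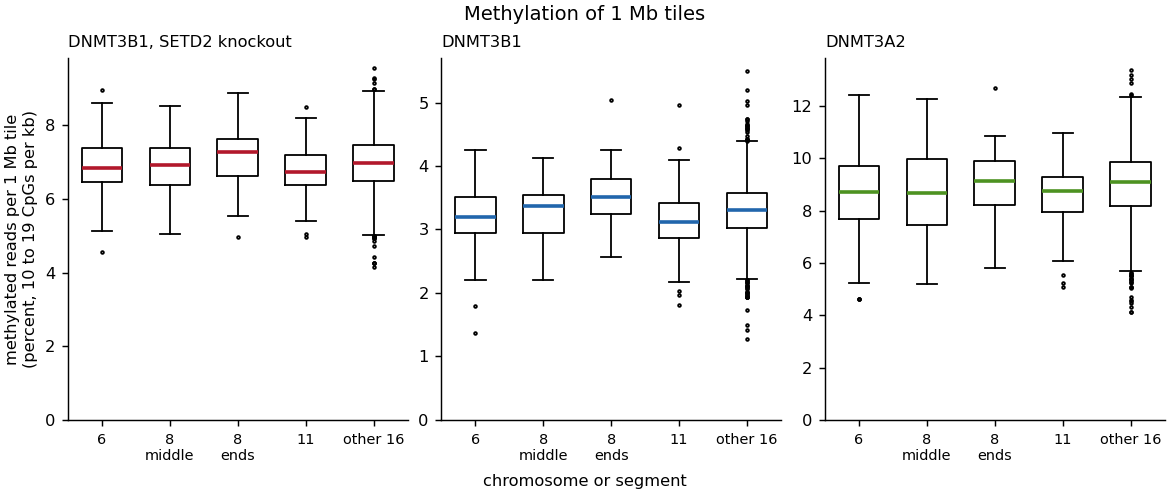
Methylation of 1 Mb tiles at 10 to 19 CpGs per kb on chromosome 6, the middle and the ends of chromosome 8, chromosome 11 and the other 16 autosomes; boxes span the quartiles with the median as a coloured line, whiskers reach the farthest tile within 1.5 times the box, and points are tiles beyond. The medians of chromosome 11 are 6.74%, 3.13% and 8.75% in the SETD2 knockout, DNMT3B1 and DNMT3A2 lines, against 6.98%, 3.30% and 9.08% for the other 16, and the boxes overlap in every line.

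Tiles varied together between the lines. Over the 328 tiles the correlation of levels was 0.639 between the knockout and the DNMT3B1 line, 0.750 between the knockout and the DNMT3A2 line and 0.697 between the DNMT3B1 and DNMT3A2 lines. On the 1451 tiles of the other 16 these values were 0.523, 0.651 and 0.507. Levels and coverage over tiles of like CpG count had correlations of -0.217 in the knockout, -0.245 in the DNMT3B1 line and -0.150 in the DNMT3A2 line over the 328 tiles. On the 1451 tiles of the other 16 they were -0.230, -0.108 and -0.259, so a negative sign was not particular to the 3 chromosomes. Within single chromosomes and in the same order of lines, they were 0.048, 0.0095 and -0.035 on chromosome 6 (119 tiles), -0.300, -0.338 and -0.236 on chromosome 8 (100 tiles) and -0.314, -0.195 and -0.129 on chromosome 11 (109 tiles). All of these describe neighbouring tiles of the same libraries.

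The most methylated tile of chromosome 8 was the same in every line and lay in its telomeric end, from 117000001 to 118000000, where coverage was not raised (0.821 times tiles of like CpG count in the DNMT3A2 line). It had 8.89% in the knockout (8.61% to 9.17%, 39640 reads), 5.04% in the DNMT3B1 line (4.79% to 5.31%, 27203 reads) and 12.7% in the DNMT3A2 line (12.3% to 13.1%, 28298 reads). On chromosome 6 the highest tiles lay near each other in 2 of the lines. The tile from 99000001 to 100000000 was highest in the knockout, with 8.96% (8.77% to 9.15%), 3.95% in the DNMT3B1 line and 12.2% in the DNMT3A2 line. The next tile below it, from 98000001 to 99000000, was highest in the DNMT3B1 line, with 4.25% (4.01% to 4.49%). The highest tile of chromosome 6 in the DNMT3A2 line lay from 144000001 to 145000000, with 12.4% (12.2% to 12.7%). On chromosome 11 the highest tile of the knockout, from 112000001 to 113000000, had 8.49% (8.28% to 8.71%), and that of the DNMT3A2 line, from 63000001 to 64000000, had 10.96% (10.7% to 11.2%).

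The lowest tiles rested on few sites. The lowest tile of the DNMT3B1 line on chromosome 6, from 129000001 to 130000000, had 1.37% (52 of 3791 reads, 1.03% to 1.79%), beside 5.62% in the knockout and 4.62% in the DNMT3A2 line. It also had the highest ratio of the knockout over DNMT3B1 on that chromosome, a relative log2 ratio of 0.97. A low DNMT3B1 level raises that ratio, so it is not a separate observation, here or in the next tile. On chromosome 11 the tile from 37000001 to 38000000 was lowest in the DNMT3B1 line, with 1.81% (44 of 2434 reads, 1.32% to 2.42%), beside 7.49% in the knockout and 5.23% in the DNMT3A2 line, a relative log2 ratio of the knockout over DNMT3B1 of 0.98. In the DNMT3A2 line the lowest tile of chromosome 11 lay from 40000001 to 41000000, with 5.07% (4.66% to 5.50%), and was the lowest of the knockout too, with 4.98% (4.63% to 5.35%). On chromosome 6 the lowest DNMT3A2 tile, from 77000001 to 78000000, had 4.62% (3.98% to 5.33%), beside 6.98% in the knockout and 2.47% in the DNMT3B1 line. The lowest knockout tile there, from 103000001 to 104000000, had 4.56% (3.97% to 5.20%). On chromosome 8 the lowest tiles were from 105000001 to 106000000 in the knockout, with 4.97% (4.26% to 5.77%), from 38000001 to 39000000 in the DNMT3B1 line, with 2.21% (1.73% to 2.79%), and from 62000001 to 63000000 in the DNMT3A2 line, with 5.21% (4.42% to 6.09%).

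On chromosome 11 the tile most favoured by DNMT3B1 lay from 30000001 to 31000000. It had 4.96% in the DNMT3B1 line (493 of 9947 reads, 4.54% to 5.40%), the highest of the chromosome, against 8.82% in the DNMT3A2 line (8.28% to 9.39%), a relative log2 ratio of 0.64. In the knockout it had 6.73% (6.32% to 7.16%), the lowest ratio of the knockout over DNMT3B1 on the chromosome, -0.62. Both ratios share the DNMT3B1 level of the tile and are not separate observations. On chromosome 8 the tile most favoured by DNMT3B1 lay from 55000001 to 56000000, with 2.95% in the DNMT3B1 line (2.50% to 3.46%) against 5.46% in the DNMT3A2 line (4.86% to 6.11%), a relative log2 ratio of 0.58. On chromosome 6 it lay from 102000001 to 103000000, with 3.36% (2.69% to 4.13%) against 5.48% (4.66% to 6.41%), a relative log2 ratio of 0.76 from 86 and 149 methylated reads. The tiles least favoured by DNMT3B1 lay from 27000001 to 28000000 on chromosome 6, from 94000001 to 95000000 on chromosome 8 and from 25000001 to 26000000 on chromosome 11, with relative log2 ratios of -0.36, -0.27 and -0.42. The lowest ratios of the knockout over DNMT3B1 were -0.29 from 56000001 to 57000000 on chromosome 6 and -0.48 from 16000001 to 17000000 on chromosome 8. The highest on chromosome 8 was 0.47, from 30000001 to 31000000. The SD of these relative log2 ratios over tiles was 0.192 for DNMT3B1 over DNMT3A2 and 0.174 for the knockout over DNMT3B1 on the 3 chromosomes, and 0.217 and 0.190 on the other 16.

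Single windows of 300 bp with at least 5 compared sites showed how far local levels departed from those of the chromosome. They were picked for their values and are descriptions. The window on chromosome 8 from 77922301 to 77922600 was methylated in all 3 lines, with 28 of 81 reads in the knockout (34.6%), 15 of 51 in the DNMT3B1 line (29.4%) and 38 of 106 in the DNMT3A2 line (35.8%). On chromosome 11 the window from 34152001 to 34152300 had 23.3%, 22.2% and 22.6% in these lines, and on chromosome 6 the window from 86897101 to 86897400 had 22.1%, 20.9% and 22.5%. Other windows had no methylated read in the DNMT3B1 line and many in the DNMT3A2 line. On chromosome 11 from 51280201 to 51280500, 15 of 161 reads were methylated in the knockout (9.32%), 0 of 111 in the DNMT3B1 line (which allows up to 2.70%) and 52 of 87 in the DNMT3A2 line (59.8%, 48.7% to 70.1%). On chromosome 8 from 127974301 to 127974600 the counts were 18 of 144 in the knockout, 0 of 83 in the DNMT3B1 line (up to 3.61%) and 24 of 52 in the DNMT3A2 line. On chromosome 6 from 30664201 to 30664500 they were 0 of 119 in the knockout (up to 2.52%), 0 of 59 in the DNMT3B1 line (up to 5.08%) and 30 of 64 in the DNMT3A2 line. These limits are 3 reads of the total and cover counting error only.

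Since raised depth changes which sites pass a minimum, single sites were also compared at like coverage, 8 to 15 reads in the DNMT3B1 and DNMT3A2 lines and 10 to 19 in the knockout. This left 92844 sites on the 3 chromosomes and 494397 on the other 16. At these sites the pooled level on the 3 chromosomes was 7.26% in the knockout, 3.32% in the DNMT3B1 line and 9.36% in the DNMT3A2 line. On the other 16 it was 7.12%, 3.35% and 9.32%. Sites with no methylated read made up 61.6% of sites in the knockout, 81.2% in the DNMT3B1 line and 54.2% in the DNMT3A2 line on the 3 chromosomes, and 63.8%, 82.4% and 56.7% on the other 16. Mean coverage was still higher on the 3 chromosomes, 14.26, 11.37 and 11.52 reads against 13.95, 11.01 and 11.10, and the part of that in the shares was not tested. Sites with at least 50% of reads methylated made up 1.72% of all autosomal sites in the knockout, 0.693% in the DNMT3B1 line and 2.81% in the DNMT3A2 line. On the 3 chromosomes the shares were 1.64% (1.56% to 1.72%), 0.544% (0.498% to 0.593%) and 2.46% (2.36% to 2.57%), and on the other 16 they were 1.74% (1.70% to 1.78%), 0.721% (0.698% to 0.745%) and 2.87% (2.82% to 2.92%). Pooled, the 3 chromosomes thus had a smaller share of highly methylated sites in the DNMT3B1 and DNMT3A2 lines, with counting intervals apart. The intervals of the knockout overlapped. All intervals of these shares cover counting error over the sites of 1 library only, and sites are not replicates of a line. Single autosomes of the other 16 ranged from 1.56% to 1.90% in the knockout, from 0.630% to 0.833% in the DNMT3B1 line and from 2.66% to 3.29% in the DNMT3A2 line. On chromosome 11 the shares were 1.47%, 0.436% and 2.23%, the lowest of the 19 autosomes in every line. On chromosome 6 they were 1.58%, 0.625% and 2.47%, inside that range in the knockout and below it in the DNMT3B1 and DNMT3A2 lines. Chromosome 8 had 1.84%, 0.568% and 2.67%, inside that range in the knockout and the DNMT3A2 line and below it in the DNMT3B1 line. The middle of chromosome 8 had 1.71%, 0.484% and 2.53%, and its ends 1.97%, 0.652% and 2.81%, in the same order of lines. In the DNMT3B1 line the interval of the middle (0.384% to 0.602%) was apart from that of the other 16 but overlapped that of the ends (0.535% to 0.787%).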

How the data were processed

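Per the file headers, the deposited series table gave the count of all reads and the count of methylated reads at each CpG site for the DNMT3A2 and the DNMT3B1 line. For the SETD2 knockout the authors deposited counts and the methylated fraction at each site with at least 10 reads. That fraction equalled methylated over total reads at every site. Both knockout files held the same values and entered as 1, and headers name lines rather than runs, so runs were taken as pooled. Per the submitters' processing notes the build was mm9. The aligner and any duplicate removal were not given in the sources used here.

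Sites above 5 times the median coverage (45 reads in DNMT3A2, 40 in DNMT3B1, 80 in the knockout) were left out, since without that maximum chromosomes 2 and 9 also passed 1.2. A tile's knockout value is the 75th percentile of coverage. It was not defined where too few sites were listed, so 369 of the 393 tiles of the 3 chromosomes had one on the raw scale and 384 over tiles of like CpG count. For the scale of like CpG count, coverage was taken over sites with a read in either table line, and tiles of the same chromosome and of chromosomes 6, 8 and 11 were left out of the 101 compared. The 3 segments had at least 5 tiles each and were fitted on the log2 of that scale. Named tiles were the highest and lowest of each line and ratio, and named windows those with the highest lowest-of-3 level and the highest DNMT3A2 level with no methylated DNMT3B1 read, among windows with at least 50 reads in each line. Intervals are exact (Clopper-Pearson) 95% ones, and those of ratios are from the counts. Levels were not adjusted for incomplete conversion. Segments and intervals were tested on simulated data. No sequence of build mm9 was used here. The members and lists were chosen with earlier results of these data known. Alternatives are given in the closing section. Scripts ran in Python 3.11.15 with scipy 1.17.1, pandas 2.3.3 and numpy 2.4.6, and matplotlib 3.10.9 drew the figures.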

Additional observations from a re-analysis of the deposited data

Results flagged for a closer look

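Sites above the coverage maximum were left out of the values of the report and held methylated reads. On chromosome 6 they were methylated in 2.67% of 82474 reads in the knockout (2.56% to 2.78%), 2.25% of 144492 reads in the DNMT3B1 line (2.18% to 2.33%) and 5.28% of 89534 reads in the DNMT3A2 line (5.13% to 5.43%). On chromosome 8 the levels were 5.03% of 78593 reads, 2.58% of 113484 reads and 7.22% of 71536 reads in the knockout, DNMT3B1 and DNMT3A2 lines. On chromosome 11 they were 5.11% of 372023 reads, 2.30% of 428573 reads and 6.88% of 326346 reads in these lines. On the other 16 autosomes such sites had 5.32%, 2.10% and 8.03%. They made up 0.262% of sites on chromosome 6, 0.257% on chromosome 8 and 0.567% on chromosome 11, against 0.0472% on the other 16.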

How the results depend on the processing

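No paired analysis was possible because each line was given once and was taken as 1 library with its runs pooled. For the same reason no replicate could be left out. The limits are those of 1 library per line and of counting intervals far narrower than the spread between autosomes. Most settings moved a methylation ratio of the 3 chromosomes over the other 16 past its interval. All but those with no coverage maximum moved it by less than 0.04. The log2 ratio of DNMT3B1 over DNMT3A2 stayed within its interval in 11 of 19 settings. That of the knockout over DNMT3B1 did so in 11 of 18. The pooled coverage of the 3 chromosomes over the median autosome, 1.43 in the knockout, 1.46 in the DNMT3B1 line and 1.47 in the DNMT3A2 line, became 1.43, 1.44 and 1.45 at 10 to 19 CpGs per kb and 1.48, 1.51 and 1.52 with the middle of chromosome 8 alone (added after seeing the data). For DNMT3B1 and DNMT3A2 it was 1.41 and 1.41 by the 75th percentile and 1.47 and 1.47 with no maximum. A mean or a setting with no maximum was not run for the knockout. The shares of tiles past 1.2 stayed within 1.5 times under all settings.

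The methylation ratios of the 3 chromosomes over the other 16, 1.001 in the knockout, 0.993 in DNMT3B1 and 0.996 in DNMT3A2, left their intervals as follows. With a minimum of 10 reads they were 1.009 in the knockout and 1.002 in DNMT3A2. With a minimum of 1 read it was 0.998 in the knockout, whose own minimum stayed at the 10 reads of its listed sites. With no coverage maximum they were 1.095 in the knockout, 1.153 in DNMT3B1 and 1.059 in DNMT3A2. With a maximum of 3 times the median they were 1.008 in the knockout, 0.999 in DNMT3B1 and 1.001 in DNMT3A2. Over all CpG densities they were 0.999 in the knockout, 0.989 in DNMT3B1 and 0.993 in DNMT3A2. At 5 to 9 CpGs per kb they were 0.994 in the knockout, 0.985 in DNMT3B1 and 0.986 in DNMT3A2. At 20 to 39 CpGs per kb they were 0.997 in the knockout, 0.984 in DNMT3B1 and 1.000 in DNMT3A2. At like coverage they were 1.020 in the knockout and 1.004 in DNMT3A2. Without the first and last 5 Mb of each chromosome it was 0.991 in DNMT3A2. Without chromosome 6 they were 0.993 in the knockout, 0.989 in DNMT3B1 and 0.987 in DNMT3A2. Without chromosome 8 they were 0.993 in the knockout, 0.978 in DNMT3B1 and 0.987 in DNMT3A2. Without chromosome 11 they were 1.021 in the knockout, 1.019 in DNMT3B1 and 1.018 in DNMT3A2. With only the middle of chromosome 8 they were 0.998 in the knockout, 0.986 in DNMT3B1 and 0.994 in DNMT3A2. With each site weighing the same it was 1.004 in the knockout. As the median of 1 Mb tiles they were 0.981 in the knockout, 0.976 in DNMT3B1 and 0.966 in DNMT3A2. As the mean of chromosome levels it was 0.998 in DNMT3B1. Over tiles of like CpG count (added after seeing the data) they were 0.981 in the knockout, 0.981 in DNMT3B1 and 0.964 in DNMT3A2. With knockout sites not required it was 0.989 in DNMT3B1. The log2 ratio of DNMT3B1 over DNMT3A2, less that of the other 16, was 0.12 with no coverage maximum, -0.024 at 20 to 39 CpGs per kb, -0.020 at like coverage, 0.0029 without chromosome 6, -0.013 without chromosome 8, -0.011 with only the middle of chromosome 8, 0.016 as the median of 1 Mb tiles and 0.025 over tiles of like CpG count. The log2 ratio of the knockout over DNMT3B1, less that of the other 16, was 0.018 with a minimum of 10 reads, -0.074 with no coverage maximum, 0.019 at 20 to 39 CpGs per kb, 0.042 at like coverage, 0.022 without chromosome 8, 0.0033 without chromosome 11 and 0.0012 over tiles of like CpG count. With counting intervals apart from 1 (0 for log2) both before and after, the ratios of DNMT3B1 and DNMT3A2 turned to the other side with no coverage maximum and without chromosome 11, and the log2 ratio of the knockout over DNMT3B1 with no coverage maximum. The intervals of the knockout's ratio and of the log2 ratio of DNMT3B1 over DNMT3A2 held 1 and 0 to begin with, so their crossings above are not counted as turns, nor are those of DNMT3A2 whose interval then held 1.

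The cause of the reversals was not tested. All other settings tried left these methylation ratios and log2 ratios within their intervals.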
